A study of Mus musculus with 16 samples.

Results

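The transcripts described are 32 genes that mark the cells of blood vessels and connective tissue, 19 of endothelium and 13 of fibroblasts, out of 19938 genes measured on the array. They were picked by symbol, and each was read from the probe set annotated with that symbol alone. All 32 had such a probe set. The symbols were chosen because earlier results of the same comparison had shown lower values of endothelial and fibroblast markers in tumoral arrays, so differences between the labels are given for them as a description and carry no test.

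Gene expression was measured in CD11b+ dendritic cells, which were sorted as CD11c+, MHC2+ and CD11b+ myeloid cells from the lungs of C57BL/6 mice with orthotopic tumours. The tumours grew from Lewis lung carcinoma (LLC), a transplantable mouse line, placed in the airways of immunocompetent hosts of the same strain. There were 8 arrays of cells from the tumour (tumoral) and 8 of cells from the lung tissue around it (peritumoral), all from tumour-bearing mice. The labels name no animal, pool, age or batch, so the spread between arrays of a label may in part be technical. Itgax, which encodes CD11c, lay between 11.51 and 11.72 on the log2 scale in tumoral arrays, against 11.07 to 11.79 in peritumoral arrays. Itgam, which encodes CD11b, lay between 11.00 and 11.62 in tumoral arrays, against 10.18 to 11.80 in peritumoral arrays. The lowest value of both genes belonged to peritumoral 4. H2-Ab1, an MHC class II gene, lay between 13.10 and 13.38 in tumoral arrays, against 13.06 to 13.38 in peritumoral arrays. limma called none of these 3 sort genes (adjusted p = 0.508 for Itgax, 0.888 for Itgam and 0.818 for H2-Ab1). No detection calls were used, so it is not known here which low values stand above the background of a probe set.

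Endothelial cells line vessels and hold together through junctions of VE-cadherin and claudin-5. They take growth and quiescence signals through VEGF receptors and through the angiopoietin receptor pair encoded by Tek and Tie1. Fibroblasts lay down collagen fibres, which small proteoglycans such as decorin, lumican and biglycan bind and space. Neither cell type carries the combination of CD11c and MHC class II by which dendritic cells are sorted. Fewer cells of a type and less RNA of that type per cell cannot be told apart in such bulk samples.

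All 19 endothelial and all 13 fibroblast transcripts were lower on average in tumoral arrays, beside 58.3% of all genes. The median difference, tumoral minus peritumoral, was -0.92 for the endothelial and -0.37 for the fibroblast transcripts on the log2 scale, against -0.02 for all genes. Most of this lay in 2 arrays. Peritumoral 4 held the highest value of the 16 arrays for all 32 transcripts, beside 15% of all genes. Peritumoral 7 came next for all 19 endothelial and for 6 fibroblast transcripts, and this order of the top arrays occurred in 2.63% of all genes. Without peritumoral 4 and 7 the medians were -0.35 and -0.13, against -0.03 for all genes. Then 16 endothelial and 12 fibroblast transcripts were still lower in tumoral arrays, beside 61.6% of all genes.

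limma called 0 of the 32 transcripts between the labels at an adjusted p under 0.05, as it did 0% of the 19938 genes, of which 2292 had an unadjusted p under 0.05. With peritumoral 4 and 7 left out it called Emcn and Sparc, 2 of the 32, beside 0.441% of all genes. Leaving out peritumoral 5 as well, a choice made after seeing the data, gave 0 calls in the whole table. Since the transcripts were chosen with this comparison known, nothing is read from these counts.

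**Figure D1:**
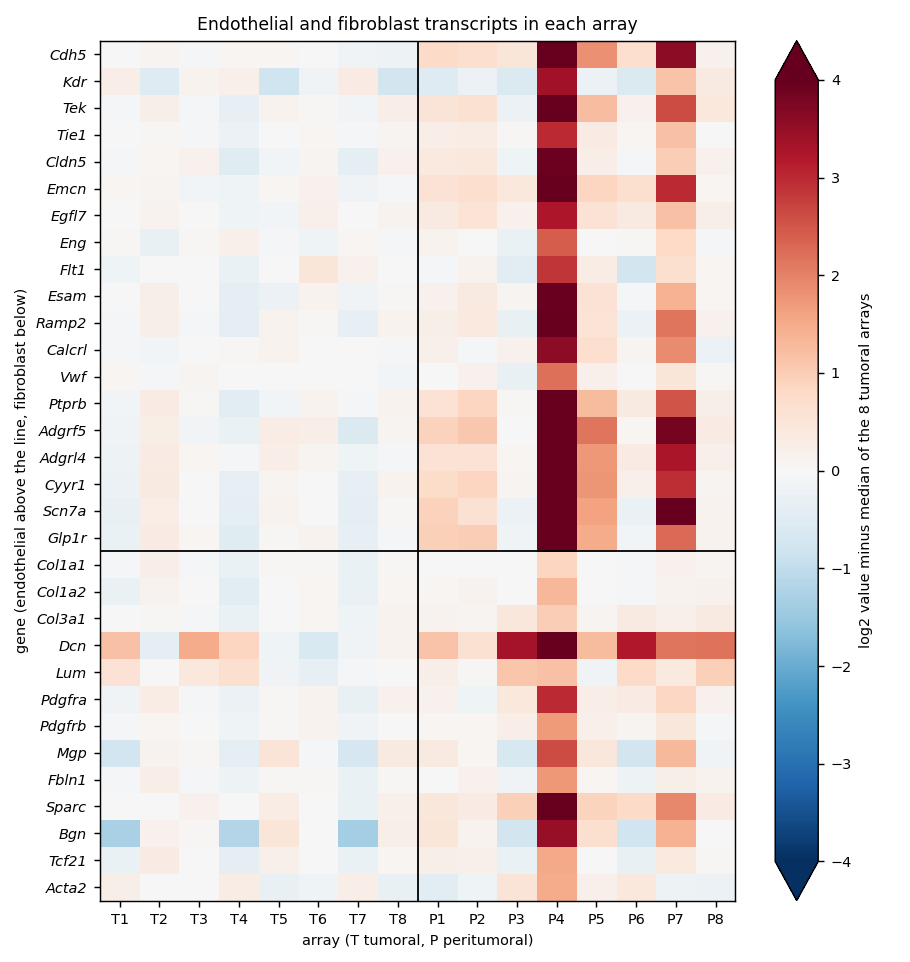
Heat map of the 32 transcripts (rows) in the 16 arrays (columns, tumoral on the left), coloured by the log2 value minus the median of the 8 tumoral arrays. Peritumoral 4 is the highest array in every row, peritumoral 7 follows in all 19 endothelial rows, and Dcn is also high in peritumoral 3 and 6.

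Among the junction genes Cdh5, which encodes VE-cadherin, separated the labels in every array. Its lowest, median and highest values were 6.53, 6.72 and 6.84 in tumoral arrays, against 6.88, 7.44 and 12.09 in peritumoral arrays. The lowest peritumoral array, peritumoral 8, lay just above the highest tumoral array. Cdh5 and Sparc were the 2 transcripts of the 32 with no overlap, beside 0.0802% of all genes. The difference for Cdh5 was -1.70 over all arrays and -0.78 without peritumoral 4 and 7. Values in peritumoral 4, 7 and 5 were 12.09, 10.29 and 8.56, and the other 5 peritumoral arrays ran from 6.88 to 7.49. The remaining junction genes overlapped. Cldn5, the claudin that seals endothelial contacts, measured 6.81 ± 0.25 in tumoral and 7.61 ± 1.34 in peritumoral arrays (SD, n = 8 each). Esam, another adhesion molecule of endothelium, had tumoral values of 6.17 ± 0.19 and peritumoral values of 7.03 ± 1.34. The differences of Cldn5 and Esam were -0.80 and -0.86 over all arrays, and -0.23 and -0.25 without peritumoral 4 and 7. Ptprb, the phosphatase VE-PTP that acts on VE-cadherin and Tie2, measured 6.49 ± 0.22 in tumoral and 7.90 ± 1.78 in peritumoral arrays, and 4 of the 6 peritumoral arrays other than 4 and 7 stood above every tumoral array.

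The angiopoietin receptor gene Tek and its partner Tie1 were lower on average in tumoral arrays, with differences of -1.35 and -0.66. Without peritumoral 4 and 7 these were -0.45 and -0.19, whereas the differences of the VEGF receptor genes turned. Tek measured 5.36, 5.70 and 5.95 at its lowest, median and highest in tumoral arrays, against 5.48, 6.28 and 11.23 in peritumoral arrays. Peritumoral 4 and 7 read 11.23 and 8.31, and peritumoral 3 and 6 lay within the tumoral range at 5.48 and 5.87. Tie1 measured 6.78 ± 0.11 in tumoral and 7.45 ± 1.01 in peritumoral arrays. Kdr, which encodes VEGFR2, the main signalling receptor for VEGF-A, measured 6.18, 6.97 and 7.30 in tumoral arrays, against 6.40, 6.73 and 10.33 in peritumoral arrays. Its tumoral values fell into a higher set, tumoral 1, 3, 4 and 7 at 7.23, 7.10, 7.16 and 7.30, and a lower one, tumoral 2, 5 and 8 at 6.44, 6.18 and 6.25, with tumoral 6 between them at 6.83. The Kdr difference was -0.50 over all arrays and 0.14 without peritumoral 4 and 7, so its direction turned. Flt1, which encodes VEGFR1 and is also made by monocytes and macrophages, likewise turned, from -0.32 over all arrays to 0.15 without these 2. Eng, the endoglin gene, a co-receptor for BMP9 and TGF-beta that activated macrophages also carry, differed by -0.41 over all arrays. It was 0.003 without peritumoral 4 and 7.

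Promoter sequences of Tek, Tie1 and Emcn are shown as examples from the endothelial list, with that of Sparc, the fibroblast transcript whose labels did not overlap. The sequences were not set against the values of the arrays. Each runs 5′ to 3′ from 250 bases before to 50 bases after the gene's start in RefSeq (GRCm38.p6), and capitals mark CAGGAA on either strand, a form of the site read by ETS transcription factors.
Tek, chr4:94739039-94739338, plus strand: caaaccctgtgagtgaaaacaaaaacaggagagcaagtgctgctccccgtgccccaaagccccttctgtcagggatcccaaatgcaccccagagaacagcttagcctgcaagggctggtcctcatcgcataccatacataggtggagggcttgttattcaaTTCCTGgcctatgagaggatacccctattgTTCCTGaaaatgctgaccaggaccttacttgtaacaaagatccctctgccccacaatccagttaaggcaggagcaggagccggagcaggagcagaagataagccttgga
Tie1, chr4:118489800-118490099, minus strand: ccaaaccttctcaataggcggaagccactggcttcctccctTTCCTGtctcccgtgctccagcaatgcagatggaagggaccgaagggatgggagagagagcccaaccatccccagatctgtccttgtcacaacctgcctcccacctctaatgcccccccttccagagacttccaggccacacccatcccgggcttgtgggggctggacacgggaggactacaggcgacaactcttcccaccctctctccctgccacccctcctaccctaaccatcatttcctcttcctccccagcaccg
Emcn, chr3:137340828-137341127, plus strand: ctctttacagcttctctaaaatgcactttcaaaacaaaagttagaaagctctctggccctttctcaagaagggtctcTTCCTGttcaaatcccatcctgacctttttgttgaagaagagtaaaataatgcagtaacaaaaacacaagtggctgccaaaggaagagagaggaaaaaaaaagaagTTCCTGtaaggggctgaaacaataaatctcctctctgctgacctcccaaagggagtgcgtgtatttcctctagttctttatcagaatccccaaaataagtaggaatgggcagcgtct
Sparc, chr11:55420031-55420330, minus strand: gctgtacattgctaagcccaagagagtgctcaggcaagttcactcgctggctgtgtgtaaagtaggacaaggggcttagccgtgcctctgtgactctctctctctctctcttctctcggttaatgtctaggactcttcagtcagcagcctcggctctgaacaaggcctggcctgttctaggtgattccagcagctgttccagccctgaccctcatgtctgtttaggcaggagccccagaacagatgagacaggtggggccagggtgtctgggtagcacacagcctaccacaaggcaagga
The Tek and Emcn windows hold 2 copies each, the Tie1 window holds 1 and the Sparc window holds 0.

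RefSeq promoters were matched for 22 of the 32 genes. CAGGAA was found on either strand in 11 of 17 windows of the endothelial genes (64.7%), in 2 of 9 windows of the fibroblast genes (22.2%) and in 30.6% of all 32851 windows of this length. A second ETS form, CCGGAA, was found in 2 endothelial windows (11.8%) and 0 fibroblast windows, against 14.9% of all windows. TATAAA, the core of the TATA box, was found in 1 window of each list (5.88% and 11.1%), against 13.6% of all windows. CAGGAA and CCGGAA share the core GGAA, some genes have several windows, and a match of letters is no measure of binding.

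The receptor for adrenomedullin, a peptide that tightens the endothelial barrier, is built from the products of Calcrl and Ramp2. Calcrl measured 8.56 ± 0.09 in tumoral and 9.35 ± 1.30 in peritumoral arrays, and Ramp2 measured 6.54 ± 0.22 in tumoral and 7.46 ± 1.54 in peritumoral arrays. Their differences were -0.79 and -0.92 over all arrays and -0.15 and -0.16 without peritumoral 4 and 7. Emcn, a sialomucin of capillaries and veins, measured 4.98, 5.14 and 5.32 at its lowest, median and highest in tumoral arrays, against 5.21, 5.79 and 10.50 in peritumoral arrays. Apart from peritumoral 8, every peritumoral array stood above every tumoral array for Emcn. The same count, 7 of 8 peritumoral arrays, held for Egfl7, a protein that endothelial cells secrete into vessel matrix, with a difference of -0.81. Vwf, the clotting factor of larger vessels, had the narrowest spread of the endothelial transcripts in tumoral arrays (SD 0.07). Its difference of -0.35 became -0.02 without peritumoral 4 and 7.

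The widest differences among the endothelial transcripts belonged to Adgrf5, Cdh5, Scn7a and Cyyr1. Adgrf5, an adhesion receptor of lung capillaries that alveolar epithelium also makes, measured 5.34, 5.92 and 6.22 in tumoral arrays, against 5.91, 6.91 and 12.13 in peritumoral arrays. Scn7a, a sodium-sensing channel gene, measured 4.48, 4.85 and 5.10 in tumoral arrays, against 4.57, 5.61 and 10.72 in peritumoral arrays. For both, peritumoral 3 and 6 lay within the tumoral range and peritumoral 4, 7 and 5 were the top arrays, in that order. Cyyr1, a gene of a small membrane protein, differed by -1.58, Adgrl4, another adhesion receptor of endothelium, by -1.50, and Glp1r, the receptor for the incretin GLP-1, by -1.47. Over all arrays 9 endothelial and 2 fibroblast transcripts were at least 2-fold lower in tumoral arrays, beside 0.181% of all genes. The counts were 0 and 1 without peritumoral 4 and 7, and the 1 fibroblast transcript was Dcn.

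**Figure D2:**
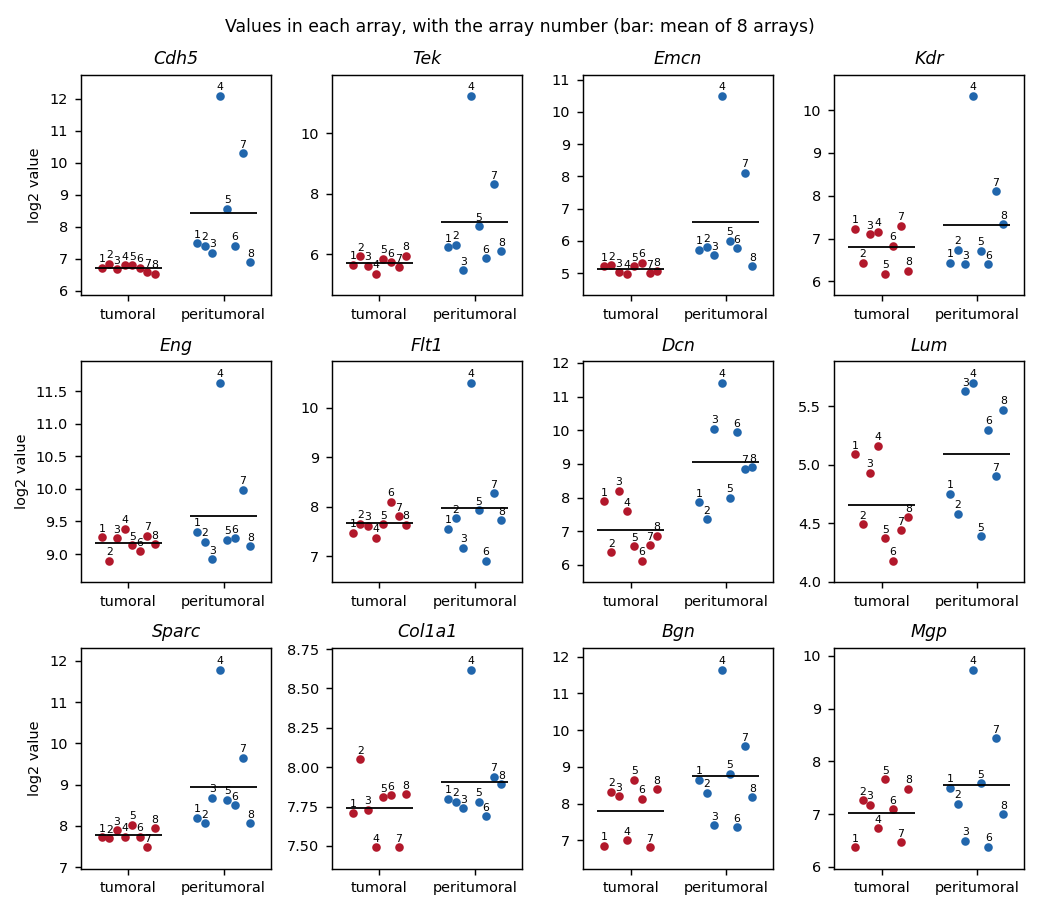
Log2 values of 12 transcripts in each array, tumoral on the left and peritumoral on the right of each panel, with array numbers and a bar at the mean of 8 arrays. Cdh5 and Sparc do not overlap between the labels. Kdr, Eng and Flt1 rise above the tumoral range only in peritumoral 4 and 7 (and 8 for Kdr), and Flt1 lies below it in peritumoral 3 and 6. Dcn and Lum are highest in peritumoral 4 and also high in peritumoral 3, 6 and 8.

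Set against the median of peritumoral 1, 2, 3, 6 and 8, peritumoral 4 was higher by 2.20 (Vwf) to 5.86 (Adgrf5) log2 units in the endothelial transcripts, with a median of 4.06. The lower side of these differences may lie in the background of a probe set, so their order between genes is not read. Peritumoral 7 was higher by 0.50 to 3.83, with values of 3.83 for Scn7a and 3.48 for Adgrf5 and a median of 1.99. In peritumoral 5 the excess was smaller, with a median of 0.50 and a value of 1.79 for Adgrf5. With peritumoral 4 and 7 set aside, peritumoral 5 was the highest of the remaining 14 arrays for 15 endothelial transcripts and 1 fibroblast transcript (Bgn), beside 4.59% of all genes. In fibroblast transcripts the excess of peritumoral 4 ran from 0.40 (Lum) to 3.59 (Sparc), with a median of 1.64. That of peritumoral 7 had a median of 0.21 and that of peritumoral 5 a median of 0.07. Whether the 2 lists differ in these excesses was not tested.

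**Figure D3:**
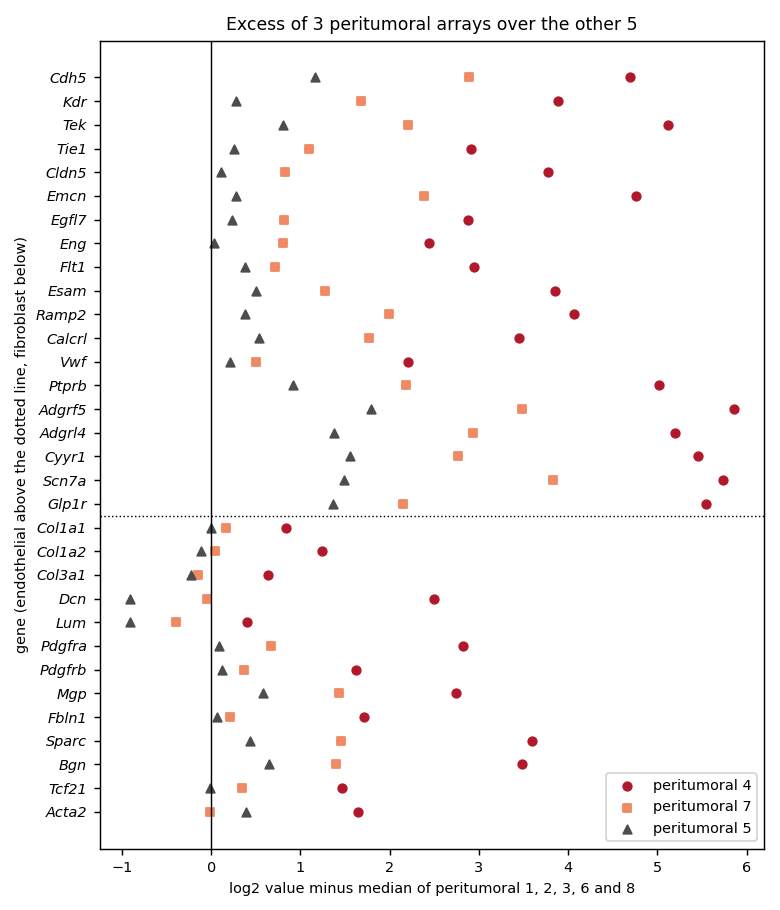
Log2 value of peritumoral 4 (circles), 7 (squares) and 5 (triangles) minus the median of peritumoral 1, 2, 3, 6 and 8, for each transcript. In the endothelial rows the 3 arrays keep the order 4, 7, 5, as for Adgrf5 at 5.86, 3.48 and 1.79, and in the fibroblast rows Dcn and Lum lie at -0.91 in peritumoral 5.

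Most endothelial transcripts had alike profiles over the 14 arrays of both labels without peritumoral 4 and 7, and Kdr, Eng and Flt1 stood apart. As a description, 12 of the 19 had a Pearson r of 0.82 to 0.97 with the mean profile of the other 18 over these arrays, which share labels and processing. Peritumoral 5 was the highest of the 14 arrays for 15 of the 19 and weighs on these r. Values of r without it or within a label are not given, so covariation apart from that array and the labels is not shown. Adgrf5, Cyyr1 and Glp1r had the highest r, at 0.97 each. Emcn and Cldn5 had 0.78 and 0.72, and Calcrl and Vwf had 0.61 and 0.55. The 3 growth factor receptor genes had -0.26 (Kdr), 0.03 (Eng) and 0.34 (Flt1). Array medians over all probe sets differed little, between 6.75 and 6.93 in tumoral and 6.80 and 6.95 in peritumoral arrays, and tumoral 4 and 7, with the lowest medians, also had the lowest endothelial means.

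The genes outside both lists whose values followed the endothelial mean most closely over 14 arrays were Tspan18 (r = 0.974), Epas1 (0.971), Slco2a1 (0.966), Dkkl1 (0.960), Cyp2b10 (0.951) and Tox (0.949). Epas1 encodes HIF-2alpha, a hypoxia-regulated factor abundant in lung endothelium, and Slco2a1 the prostaglandin transporter. Epas1 measured 7.14, 7.63 and 7.74 at its lowest, median and highest in tumoral arrays, against 7.32, 8.16 and 12.47 in peritumoral arrays. Over all 16 arrays, where peritumoral 4 and 7 set the value, the closest were Tspan18, Cyp2b10, Acer2, Tmem100, Cyp4b1 and Sema3c, with r between 0.993 and 0.999. Dkkl1 did not share the excess of peritumoral 4, at 6.58 there against 6.93 in peritumoral 5, and its r over 16 arrays was 0.346.

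Fibroblast transcripts did not form 1 pattern. The fibrillar collagen genes differed little. Col1a1 measured 7.74 ± 0.19 in tumoral and 7.90 ± 0.30 in peritumoral arrays, and tumoral 2 (8.05) was its second highest array. Col1a2 differed by -0.31 and Col3a1 by -0.37. Without peritumoral 4 and 7 the differences were -0.04 for Col1a1, -0.13 for Col1a2 and -0.29 for Col3a1. Peritumoral 4 exceeded the median of the other 5 peritumoral arrays by 0.84, 1.24 and 0.64 in these 3 genes.

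Dcn had the largest difference of the 32 transcripts, and peritumoral 4 and 7 did not carry it. Dcn, the decorin gene, measured 6.13, 6.73 and 8.21 at its lowest, median and highest in tumoral arrays, against 7.35, 8.89 and 11.41 in peritumoral arrays. Peritumoral 4, 3 and 6 were highest at 11.41, 10.05 and 9.94, and tumoral 3, 1 and 4 at 8.21, 7.90 and 7.59 overlapped with peritumoral 1, 2 and 5 at 7.87, 7.35 and 8.0. The difference was -2.02 over all arrays and -1.66 without peritumoral 4 and 7. Lum, the lumican gene, had a like order of arrays on a smaller scale, with tumoral values of 4.18, 4.52 and 5.16, against 4.39, 5.10 and 5.70 in peritumoral arrays. Peritumoral 4, 3, 8 and 6 read 5.70, 5.63, 5.47 and 5.30 for Lum, and peritumoral 5 had the lowest value of its label, 4.39. In peritumoral 3 and 6, where Dcn was high, Adgrf5 lay at 5.91 and 6.01, the lowest values of its label.

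Sparc, a collagen-binding matrix protein that endothelium makes too, followed both patterns. Its values were 7.48, 7.74 and 8.03 in tumoral arrays, against 8.06, 8.57 and 11.79 in peritumoral arrays, with no overlap. Peritumoral 4 and 7 read 11.79 and 9.65, and peritumoral 3, 5 and 6 read 8.69, 8.64 and 8.50. The difference was -1.16 over all arrays and -0.57 without peritumoral 4 and 7. The receptor gene Pdgfra, which marks lung fibroblasts, measured 6.79 ± 0.21 in tumoral and 7.42 ± 1.0 in peritumoral arrays. Pdgfrb, shared by fibroblasts and pericytes, measured 6.40 ± 0.11 in tumoral and 6.76 ± 0.56 in peritumoral arrays. Without peritumoral 4 and 7 the differences were -0.20 and -0.12.

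Bgn and Mgp varied widely within each label. Bgn, the biglycan gene, read 6.86, 7.0 and 6.81 in tumoral 1, 4 and 7 and between 8.14 and 8.65 in the other tumoral arrays. In peritumoral 3 and 6 it read 7.42 and 7.36, and between 8.17 and 11.65 in the other peritumoral arrays. Mgp, an inhibitor of calcification, was lowest in tumoral 1 and 7 (6.37 and 6.47) and in peritumoral 6 and 3 (6.38 and 6.50). The mean of 17 lung epithelial markers was also low in these arrays, at -0.45, -0.58 and -0.58 in tumoral 1, 4 and 7 and at -0.57 and -0.50 in peritumoral 3 and 6. Irf4 and Flt3, a transcription factor gene and a growth factor receptor gene of conventional dendritic cells, separated the same arrays within each label. Irf4 read 9.17, 9.0 and 9.39 in tumoral 1, 4 and 7 and 10.20 to 10.66 in the other tumoral arrays, against 9.0 and 8.77 in peritumoral 3 and 6 and 9.88 to 10.66 in the other peritumoral arrays. Flt3 read 8.78, 8.74 and 9.25 in tumoral 1, 4 and 7 and 9.71 to 10.45 in the other tumoral arrays, against 8.89 and 8.73 in peritumoral 3 and 6 and 9.39 to 10.32 in the other peritumoral arrays. The part of the epithelial and dendritic cell genes in the values of Bgn, Mgp and Dcn was not tested. Fbln1, a matrix glycoprotein gene, Tcf21, a transcription factor gene of lung mesenchyme, and Acta2, the smooth muscle actin gene, differed by -0.27, -0.27 and -0.19. Each lay between -0.04 and -0.03 without peritumoral 4 and 7.

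**Figure D4:**
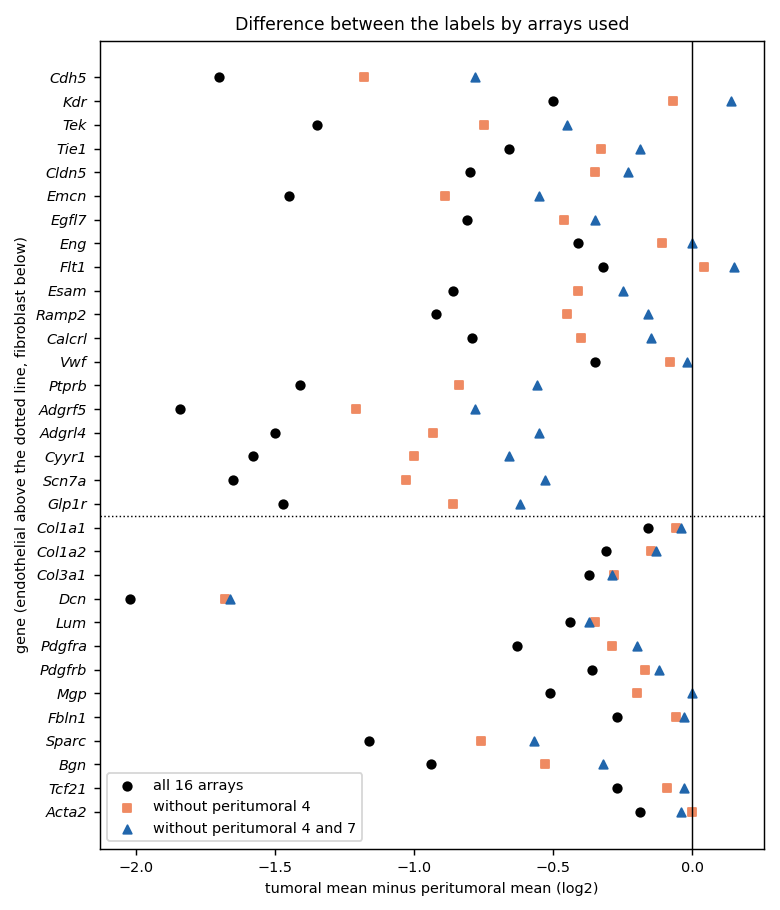
Tumoral mean minus peritumoral mean (log2) of each transcript over all 16 arrays (circles), without peritumoral 4 (squares) and without peritumoral 4 and 7 (triangles). All 32 circles lie below 0, Kdr and Flt1 lie above 0 without both arrays, and Dcn keeps most of its difference at -1.66.

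Over the 14 arrays without peritumoral 4 and 7, Sparc (0.84) and Col3a1 (0.80) had the highest Pearson r with the mean profile of the other 12 fibroblast transcripts. Dcn and Lum had 0.27 each, Bgn 0.25 and Acta2 -0.15. The genes outside both lists nearest to the fibroblast mean over these arrays were Cobll1 (r = 0.945), Tm4sf1 (0.898), Mxra8 (0.889), 6430503K07Rik (0.884), Lhfp (0.883) and Amotl1 (0.882). Tm4sf1, a tetraspanin-like gene known from endothelium, measured 5.83, 6.12 and 6.36 in tumoral arrays, against 6.47, 6.70 and 10.23 in peritumoral arrays, without overlap. Over all 16 arrays the nearest were Tm4sf1, Cobll1, Rhoj, Tns2, Dpt and Golm2, with r between 0.979 and 0.989.

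Within a label, 6 pairs of genes were set against each other in the 8 tumoral arrays and in the 6 peritumoral arrays other than 4 and 7, which gave 12 relations. None passed after adjustment (two-sided exact permutation test). The nearest was Dcn against Ager, a type I pneumocyte gene, in the 6 peritumoral arrays, with a Pearson r of -0.97 (exact p = 0.00417, adjusted p = 0.05) and a Spearman rho of -0.94 (exact p = 0.0167, adjusted p = 0.2). Leaving out the 2 of these 6 arrays farthest from the median of Dcn, peritumoral 3 and 6 (10.05 and 9.94), gave r = -0.92. Too few arrays were then left for this r to be read. In tumoral arrays the same pair had r = -0.57 (exact p = 0.144, adjusted p = 0.575) and rho = -0.67 (exact p = 0.0831, adjusted p = 0.499), and r was -0.77 without the 2 farthest arrays. Cdh5 against Dcn had r = -0.06 in tumoral arrays (exact p = 0.888, adjusted p = 0.931) and rho = -0.38 (exact p = 0.36, adjusted p = 0.675), with r = -0.53 without the 2 farthest arrays. In the 6 peritumoral arrays this pair had r = -0.40 (exact p = 0.507, adjusted p = 0.846) and rho = -0.60 (exact p = 0.242, adjusted p = 0.58).

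Other genes of vessels and connective tissue were read from 11 further lists. All 23 further pan-endothelial genes were lower in tumoral arrays, their median difference being -0.39, and 18 were lower without peritumoral 4 and 7, with a median of -0.06. Pecam1, which encodes CD31 and is also made by myeloid cells, measured 7.55, 7.78 and 8.15 in tumoral arrays, against 7.26, 7.61 and 11.05 in peritumoral arrays. Of 12 genes of lung capillaries and aerocytes, the thin capillary cells of gas exchange, 11 were lower, with a median of -0.53. Without peritumoral 4 and 7, 9 were lower, with a median of -0.14. In this list Car4 and Tmem100 were highest in peritumoral 4 at 12.07 and 10.25. Cav1, the caveolin gene, had a difference of -1.51, and of -1.0 when peritumoral 4 and 7 were left out, where limma gave an adjusted p of 0.0302, which did not hold without peritumoral 5. Like Dcn, it was high in peritumoral 3 and 6 (9.11 and 8.81).

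Artery and Notch genes were lower for 11 of 12, with Efnb2, Hey1 and Dll4 at 10.31, 9.58 and 9.35 in peritumoral 4, and the median was -0.23. Genes of veins and venules were lower for 7 of 9, with Slco2a1 at -1.21, Ephb4 at -0.43 and Vcam1, an adhesion molecule that myeloid cells also make, at 0.15. Lymphatic genes were lower for 5 of 6, among them Lyve1 (-0.96) and Flt4 (-0.18), and Pdpn differed by 0.22. Of the ligands, 8 of 10 were lower with a median of -0.07, with Vegfd at -0.40 and Angpt1 at -0.17. Placental growth factor, Pgf, ran from 6.98 to 8.35 in tumoral and from 6.69 to 8.39 in peritumoral arrays, with its lowest value in peritumoral 4. Genes of tip cells and tumour vessels were lower for 10 of 12, including Plvap (-0.64), Mcam (-0.50) and Dll4 (-0.50). Without peritumoral 4 and 7 the counts were 8 (artery), 6 (vein), 4 (lymphatic), 6 (ligands) and 8 (tip cell). Their medians then lay between -0.12 and -0.04. Of all genes 58.3% were lower over all arrays and 61.6% without peritumoral 4 and 7. Efnb2, Flt4 and Angpt1 turned to 0.15, 0.02 and 0.05, and Slco2a1 and Lyve1 stood at -0.43 and -0.34.

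Basement membrane genes were lower for 14 of 14, with a median of -0.25 and Nid1 at -0.94. Lama4 and Lamb2 differed by -0.25 and -0.30. Pericyte and smooth muscle genes were lower for 13 of 15, with a median of -0.12 and Mylk, Trpc6 and Des at -0.25, -0.26 and -0.31. The list mean of pericyte and smooth muscle genes reached 0.42 in peritumoral 4, against 3.87 for the 19 endothelial transcripts, which were chosen with earlier results known. The further pan-endothelial, lung capillary, artery, vein and lymphatic lists read 2.04, 2.38, 1.17, 0.94 and 0.66 there. Of 32 further genes of fibroblasts 31 were lower, the median being -0.36 over all arrays, and 30 without peritumoral 4 and 7, with a median of -0.12. Igfbp7, which vessels also make, differed by -1.48, Timp3 by -1.04 and Ogn by -0.77 over all arrays. Without peritumoral 4 and 7 these 3 genes differed by -0.71, -0.31 and -0.06. All 6 mesothelial genes were lower, with Krt19, Bcam and Upk3b at -0.46, -0.54 and -0.38. Without peritumoral 4 and 7, 12 of 14 basement membrane, 12 of 15 pericyte and smooth muscle and 6 of 6 mesothelial genes were lower. Their medians were then -0.09, -0.08 and -0.1. limma called 0 genes of these 11 lists over all arrays, and Cav1 alone without peritumoral 4 and 7.

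Markers of other cells were high together with the endothelial and fibroblast transcripts in peritumoral 4. In peritumoral 7 their list means lay below that of the endothelial members, and that of lung epithelium was close to that of the fibroblast members. In peritumoral 4 the list means of lung epithelium (17 genes), T, NK and B cells (14 genes) and neutrophils (12 genes) were 1.98, 1.90 and 1.27. In peritumoral 7 they were 0.48, 0.02 and -0.01, where the mean of the 19 endothelial members was 1.58 and that of the 13 fibroblast members 0.44. Both member lists were chosen with earlier results of these data known. The further pan-endothelial, lung capillary, artery and vein lists read 0.45, 0.8, 0.17 and 0.21 in peritumoral 7. In peritumoral 5, where the endothelial mean was 0.39, the neutrophil mean was 1.20. Tumoral arrays ran from -0.58 to 0.09 for lung epithelium, from -0.51 to 0.12 for lymphocytes and from -0.51 to 0.19 for neutrophils. All 17 epithelial, 14 lymphocyte and 12 neutrophil genes were lower in tumoral arrays on average, beside 58.3% of all genes. Their medians were -0.53, -0.34 and -0.5. Without peritumoral 4 and 7 the medians were -0.09, -0.06 and -0.23. Then 16 epithelial, 11 lymphocyte and 11 neutrophil genes were lower, beside 61.6% of all genes. Sftpc, Ms4a1 and Cd79a were among those that turned, at 0.12, 0.34 and 0.21. Among their widest ranging genes were Scgb1a1 of club cells (13.06 in peritumoral 4), Sftpc of type II pneumocytes (12.81), Cyp2f2 (12.38), Nkg7 (10.60), Ms4a1 (9.63) and Cd79a (9.19). The neutrophil genes Lcn2, Mmp9 and Mmp8 were highest in peritumoral 5, peritumoral 6 and tumoral 1 and 4 (10.86, 12.19 and 9.15). The mean of the 12 dendritic cell and sort genes ran from -0.23 (tumoral 4) to 0.25 (tumoral 5) in tumoral arrays, against -0.35 to 0.26 in peritumoral arrays. It was -0.32 in peritumoral 4, -0.35 in peritumoral 6 and -0.30 in peritumoral 3, and 0.24 in peritumoral 7. Single genes of the list differed among these low arrays. Itgam read 10.18 in peritumoral 4, against 11.80 and 11.68 in peritumoral 3 and 6. Irf4 read 9.88 in peritumoral 4, against 9.0 and 8.77 in peritumoral 3 and 6. In this list 11 genes were higher in tumoral arrays, the median difference being 0.05, and Irf4 and Flt3 differed by 0.04 each. The part of these cells in the endothelial and fibroblast values was not tested.

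**Figure D5:**
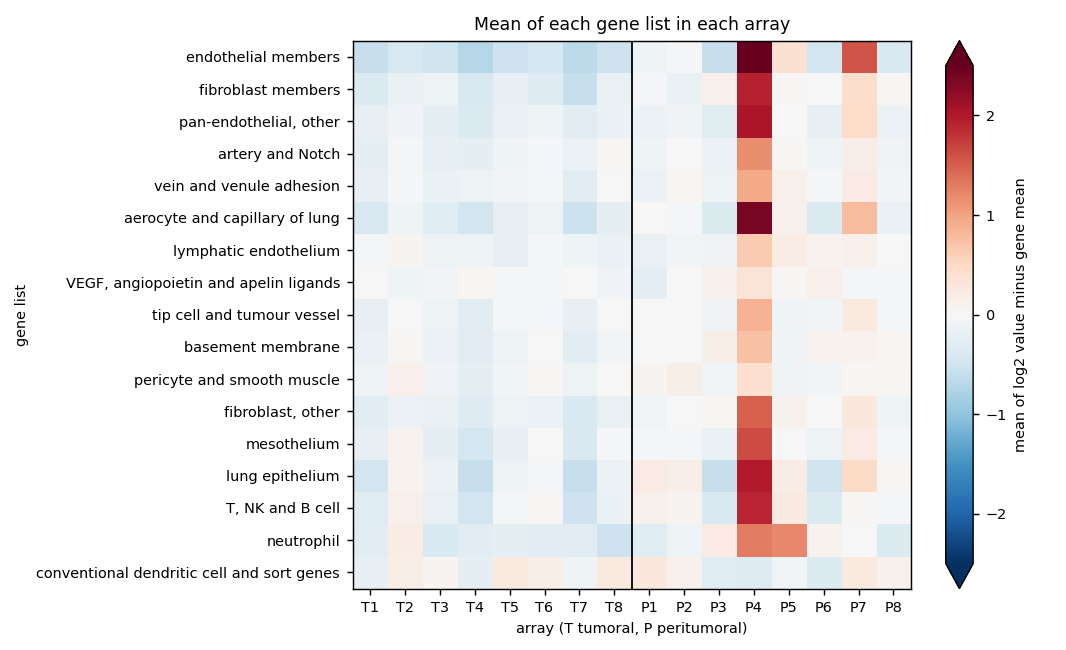
Mean over each gene list (rows) in each array (columns, tumoral on the left) of the log2 value minus the gene's mean over 16 arrays. Peritumoral 4 is high for endothelial, fibroblast, epithelial, lymphocyte and neutrophil lists. In peritumoral 7 the endothelial members read 1.58, the fibroblast members 0.44, the further pan-endothelial genes 0.45, lung epithelium 0.48 and the lymphocyte list 0.02.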

How the data were processed

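CD11b+ dendritic cells of tumoral and peritumoral lung were measured on 16 Affymetrix whole-transcript arrays from biotin-labelled cDNA, per the labels' protocols. The authors deposited a table of 28853 probe sets, read as log2 expression because of its range (2.31 to 14.33). Neither the log base nor the background correction and normalization behind it were stated, which is to say not given in the sources used here. For arrays their number limits the precision. The platform annotation gave 21789 probe sets 1 symbol, 1621 several and 5443 none. Of several probe sets of a gene the highest by mean over 16 arrays was kept, which left 19938 genes. Where a listed symbol was not on the array, the RefSeq table's synonyms were used (GRCm38.p6).

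The contrast of the labels was fitted by limma (version 3.58.1, under R 4.3.3) on all 16 arrays with the label as sole term, p-values were adjusted by Benjamini-Hochberg across the 19938 genes, and calls were made at 0.05, without a filter on dim probe sets. The test was tried on simulated data with 200 changed genes. The simulated noise was independent between genes, so it does not cover arrays such as peritumoral 4, where many genes shift together. List means average, within an array, the deviation of every listed gene from its own mean over the arrays. Gene pairs were tested by exact permutation in Python 3.11.15. Named were all 32 members, the 3 genes of widest range in each of 15 other lists (199 of 205 genes on the array), the 6 genes nearest each mean profile, and the sort genes. Members and lists were chosen with earlier results of these data known. Alternatives tried were quantile normalization, a fixed or random block for the replicate number, centring on array medians, the mean of all probe sets, brighter genes only, trended robust variances, array weights and arrays left out. Replicate numbers were not used to pair the arrays in the main fit, and whether same-numbered arrays share an animal is not known.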

Additional observations from a re-analysis of the deposited data

Results flagged for a closer look

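In 18 of the 64 sets of 8 values (32 transcripts in 2 labels) the extreme array stood apart from its nearest neighbour by a larger share of the range than Dixon's critical value for 8 values allows. Chance gives this in about 1 of 20 independent sets, but the 32 transcripts share their arrays, so the count of 18 is not set against that rate. Peritumoral 4 was already known to stand apart, and the values add no independent evidence of it. All 18 were high values of peritumoral 4, 10 endothelial and 8 fibroblast, with a gap of 0.536 to 0.842 of the range. The endothelial values there were 10.33 for Kdr, 9.78 for Tie1, 10.80 for Cldn5, 10.58 for Egfl7, 11.63 for Eng, 10.50 for Flt1, 10.15 for Esam, 10.08 for Vwf, 11.86 for Ptprb and 11.83 for Glp1r. Fibroblast values were 8.62 for Col1a1, 8.80 for Col1a2, 8.16 for Col3a1, 9.78 for Pdgfra, 8.10 for Pdgfrb, 8.40 for Fbln1, 11.79 for Sparc and 7.73 for Tcf21. Where peritumoral 7 was high as well, as for Adgrf5, Scn7a and Cyyr1, the gap below peritumoral 4 was smaller, so these transcripts are not among the 18. No tumoral array stood apart in this way for any of the 32.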

How the results depend on the processing

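The number of genes called by limma was 0 over all arrays and between 0 and 128 when 1 array was left out, with 128 without peritumoral 7 (0.642% of genes, 0 of the 32 transcripts) and 20 without peritumoral 8. It was 88 without peritumoral 4 and 7 and 0 under every other alternative run, the replicate block (1985 genes at an unadjusted p under 0.05) and random block among them. Same-numbered arrays correlated from -0.56 to 0.29 in their deviations from the label means, over 0.1 in 3 of 8 pairs, and 1 of 8 tumoral arrays correlated best with its own number. The medians of both lists stayed below 0 in the alternatives for which they were computed, from -1.09 to -0.29 (endothelial) and from -0.41 to -0.13 (fibroblast). They were not computed for brighter genes only, trended robust variances or array weights. The mean over members in place of the median was -1.07 for the endothelial and -0.59 for the fibroblast transcripts over all arrays. Differences that turned without peritumoral 4 and 7 were those of Kdr (0.14), Eng (0.003), Flt1 (0.15) and Mgp (0.003). Without peritumoral 4, 5 and 7 they were 0.15, 0.014, 0.24 and 0.11, with Vwf at 0.022, and Flt1 ranged from -0.47 to 0.044 when 1 array was left out, 0.044 being without peritumoral 4. Cdh5 overlapped between the labels after quantile normalization, and Sparc after centring on array medians. Among the gene pairs, after quantile normalization, r in tumoral arrays turned to 0.22 for Cdh5 and Kdr, 0.20 for Cdh5 and Dcn and -0.22 for Cdh5 and Ager, and Dcn against Ager in 6 peritumoral arrays passed (r = -0.98, exact permutation adjusted p = 0.0333). After centring, the 3 tumoral pairs turned to 0.08, 0.14 and -0.08. Without the 2 arrays farthest from the median of the pair's first gene, r in tumoral arrays was -0.57 for Cdh5 and Kdr, -0.75 for Dcn and Col1a2, -0.53 for Cdh5 and Dcn and -0.77 for Dcn and Ager. In the 6 peritumoral arrays it was 0.25 for Cdh5 and Kdr, 0.14 for Dcn and Col1a2 (both turned), -0.66 for Cdh5 and Dcn and 0.64 for Cdh5 and Itgax. The cause of these changes was not tested.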
